A study of Saccharomyces cerevisiae with 14 samples.

Results

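The genes described here act at the start of the yeast cell cycle. They are 44 genes of G1/S control and DNA replication, chosen by name, and each was represented by exactly 1 probe set that the platform annotation assigns to that gene alone. They are 44 of the 5449 S. cerevisiae genes with a probe set. Of the 44, 43 passed the filter on dim signal and were tested, among 5298 genes (5338 probe sets). The list holds the G1 cyclins, the S-phase cyclins, the transcription factors SBF and MBF with their repressor Whi5, ribonucleotide reductase, the replicative DNA polymerases, primase and sliding clamp, replication protein A, the clamp loader, the MCM helicase with its loaders, the ligase and nuclease of Okazaki fragments, and the origin recognition complex.

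The RNA came from the lager yeast strain CB11, sampled during 1 production fermentation in a 3275 hL cylindroconical vessel. The wort had a gravity of 17 °Plato, was made from 85% malt and 15% sugar adjunct, and carried 25 mg/L dissolved oxygen when it entered the vessel. The vessel was filled in stages with pitched and unpitched wort, and the yeast had already been used in earlier fermentations. Samples were taken 8, 30, 60, 80 and 102 h after pitching, with 3 arrays at each time other than 30 h, which had 2, so that 14 arrays were compared. No treatment or genotype differed between groups: time in the vessel was the only difference. The first sample was taken 5 h after the last oxygenated wort had entered. All arrays sampled the same vessel and yeast batch, so a p-value here describes how far these arrays scatter, and that scatter may be technical. Lager yeasts are hybrids of S. cerevisiae and a second Saccharomyces species, and a probe set designed on S. cerevisiae may take up transcripts of either parent. In a mixed culture, fewer cells of a cell cycle stage and less RNA per cell cannot be told apart.

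In budding yeast, a cell commits to division in late G1, when the G1 cyclin Cln3 with the kinase Cdc28 relieves the repressor Whi5 from SBF. SBF (Swi4 with Swi6) and MBF (Mbp1 with Swi6) then switch on a wave of genes that includes CLN1, CLN2, CLB5, CLB6, RNR1 and many replication genes. Replication itself starts where the origin recognition complex and Cdc6 have loaded the MCM helicase, which Cdc45 helps to activate, and the polymerases, clamp and clamp loader then copy the strands. Nutrient exhaustion is known to arrest yeast in G1.

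The values are quantile normalized signal intensities, and differences are given on the log2 scale. Signal compares 1 gene between times, and no gene's level is set against another's. The arrays 8 h replicate 1, 60 h replicate 1 and 60 h replicate 2 had low signal at the 5′ end of long control transcripts. Their mean log2 ratio of 5′ to 3′ signal over 6 control transcripts was -3.30, -4.08 and -1.66, against -0.74 to -0.36 on the 11 others. Results called with all arrays that rest on 8 h or 60 h are therefore also given from a fit without these 3 arrays, in which 60 h replicate 3 stands alone for 60 h and takes its spread from the other times. Each array was also left out in turn. The closing section gives gene counts from a fit that adjusted for how low the 5′ signal of each array was. No further fit addressed the low 5′ signal of these arrays. Between arrays of 1 time, log2 signal over all tested probe sets correlated at 0.903 to 0.994. At least 94.4% of S. cerevisiae probe sets exceeded the background threshold of 22.1 on every array.

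Most of the genes changed during the fermentation, in a share slightly below that of all probe sets, and this difference was not tested. By the moderated F-test of limma over the 5 times, 27 of the 43 (62.8%) changed, with 68.5% of all tested probe sets called. Without the 3 arrays of low 5′ signal the count was 32 of 43, with 81.8% of all called; 26 genes were called by both fits. Leaving out 1 array gave 19 to 27 calls. Their time courses were also of moderate height. The highest and lowest time means lay at least 2-fold apart in 13 of 43 (30.2%), and in 39.5% of all probe sets. The median span was 1.77-fold for these genes and 1.82-fold for all. The genes were also dimmer, with a median log2 level of 7.64 against 8.34 for all. The part of signal level in these shares was not tested. The highest of the 5 time means fell at 8 h for 16 of the 43 genes, at 102 h for 9, at 80 h for 7, at 60 h for 6 and at 30 h for 5. Over all 5338 probe sets, these counts were 1521, 1021, 845, 1398 and 553. An 8 h peak was the commonest in both.

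**Figure D1:**
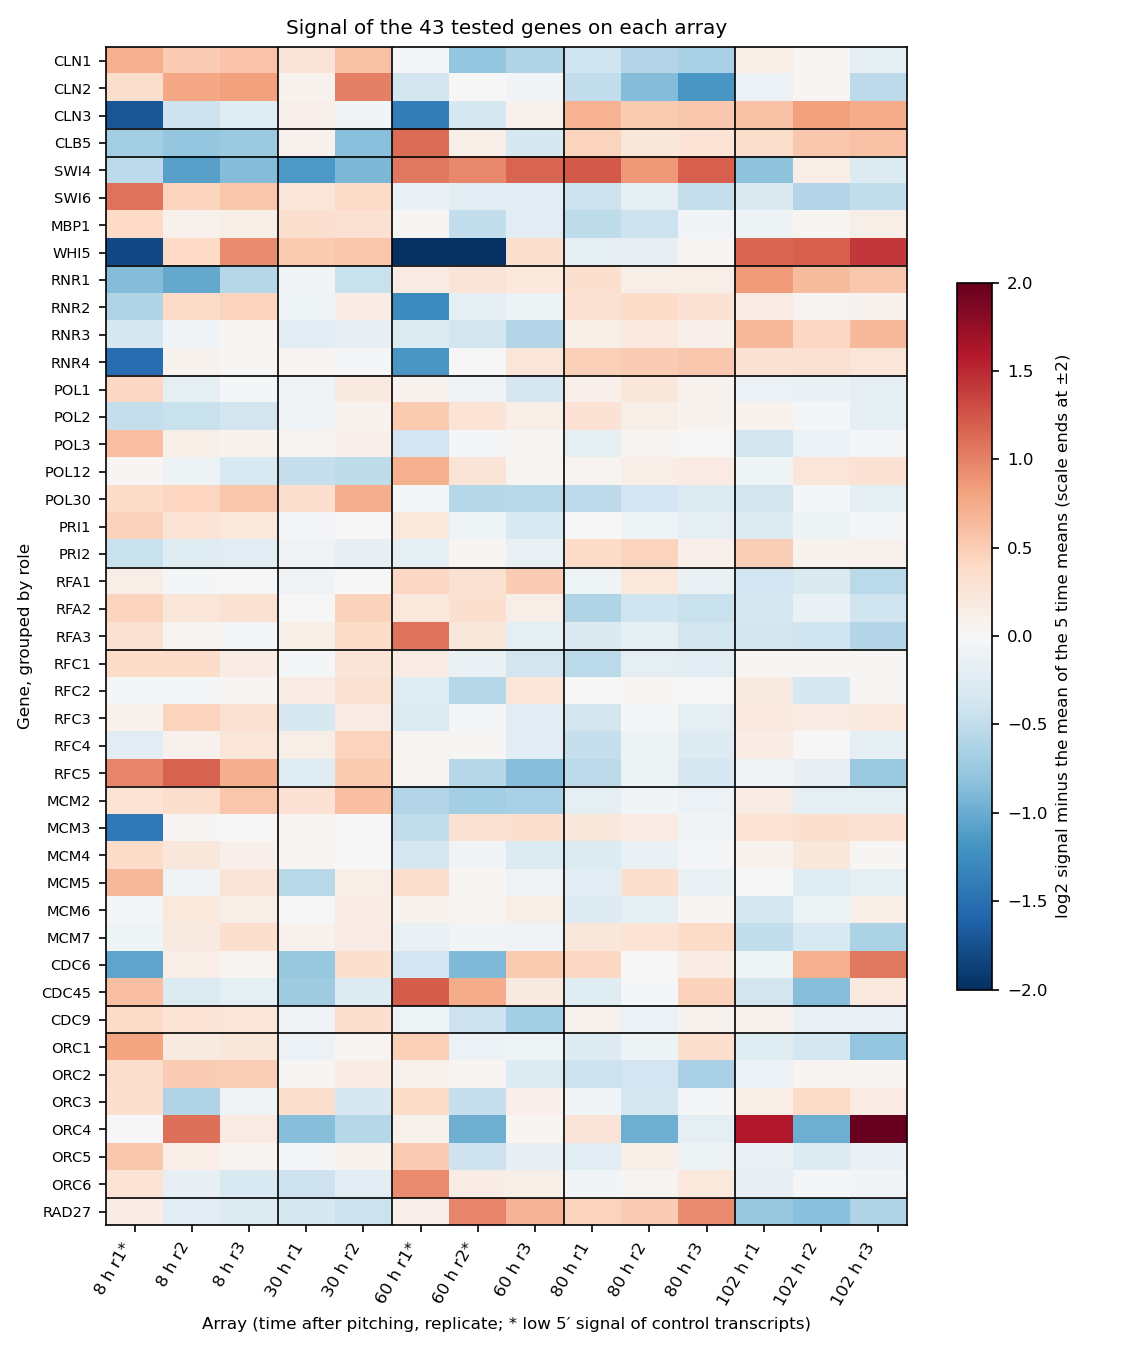
Signal of the 43 tested genes (rows, grouped by role) on each of the 14 arrays (columns), as log2 signal minus the mean of the gene's 5 time means; colours end at ±2 and asterisks mark the 3 arrays of low 5′ signal. SWI4 and RAD27 are high at 60 h and 80 h, RNR1 and CLN3 are highest at 102 h, and WHI5 is low on the 3 marked arrays.

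The steps of the time course differed in how many genes passed. From 8 h to 30 h, 0 genes were called higher and 0 lower by limma, with 0.112% and 0.131% of all probe sets called. Of the 43, 4 had an unadjusted p under 0.05, as did 880 of all 5338 probe sets. The other fits that changed these calls are given in the closing section. From 30 h to 60 h, 6 were higher (background 16.2%) and 5 lower (11.7%). With arrays centred on their medians instead, that split was 5 higher (13.2%) and 7 lower (14.9%). From 60 h to 80 h, 3 were higher (9.42%) and 3 lower (10.9%). From 80 h to 102 h, 2 were higher (7.59%) and 4 lower (8.36%). On the authors' deposited scale, the median log2 change of all probe sets in these last steps was 0.25 and -0.31. On that scale 9 genes were higher (21%) and 0 lower (3.3%), then 0 higher (2.3%) and 8 lower (26.7%). Between the ends of the series, 8 h and 102 h, 6 genes were higher (21.6%) and 14 lower (28.6%). The shares of the 43 genes in these directions were 14.0% and 32.6%, the first below and the second near those of all probe sets. Arrays of 2 times often did not overlap. From 8 h to 102 h, 9 genes lay wholly higher and 18 wholly lower (29.0% and 36.6% of all probe sets). These counts were 5 and 9 from 8 h to 30 h (13.4% and 21.4%) and 8 and 14 from 30 h to 60 h (26.6% and 21.3%). They were 7 and 6 from 60 h to 80 h (17.1% and 21.3%) and 11 and 8 from 80 h to 102 h (26.3% and 30.5%).

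Medians over the 43 genes stayed near those of all probe sets. The median log2 change was -0.08 from 8 h to 30 h, where that of all probe sets was -0.04. It was -0.09 against 0.05 from 30 h to 60 h, -0.02 against -0.04 from 60 h to 80 h, and 0.02 against -0.04 from 80 h to 102 h. Over the whole course it was -0.20, against -0.09 for all. The fit without the 3 arrays gave other counts. It called 0 genes higher and 1 lower from 8 h to 30 h (background 4.03% and 4.1%), then 4 and 7 to 60 h (17.8% and 15.6%) and 5 and 2 to 80 h (11.4% and 11.3%). It called 8 and 8 from 80 h to 102 h (19.7% and 23.1%), and 11 and 15 from 8 h to 102 h (28.6% and 33.7%). Of these calls, 0, 9, 4, 6 and 19 were shared with the fit of all arrays. In both fits the comparison of 8 h with 102 h had the most calls.

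**Figure D2:**
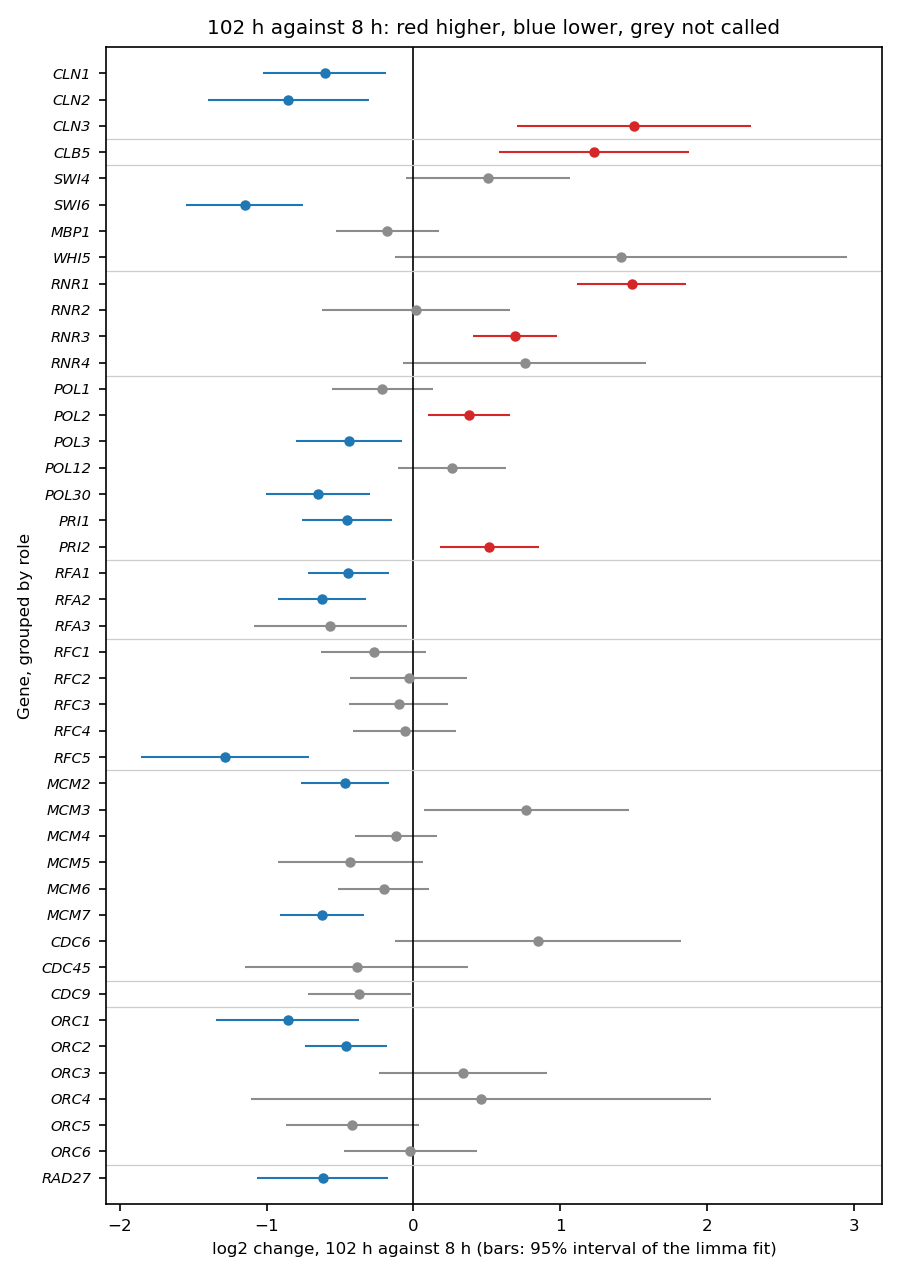
Log2 change of the 43 tested genes from 8 h to 102 h (x axis) with 95% intervals, grouped by role (y axis); red marks the 6 called higher, blue the 14 called lower and grey the 23 not called. CLN3, RNR1 and CLB5 show the highest called values, and RFC5 and SWI6 the lowest.

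The 3 G1 cyclins went in different directions. CLN3, the cyclin that acts first at G1/S, was higher late in the fermentation, and CLN1 and CLN2, whose genes SBF activates, were lower. CLN1 signal was 154, 134 and 139 at 8 h, 113 and 141 at 30 h, 92.1, 54.9 and 62.2 at 60 h, 71.4, 62.5 and 60.2 at 80 h and 103, 95.3 and 82.9 at 102 h. All 6 arrays of 60 h and 80 h lay below every array of 8 h and 30 h, and those of 102 h lay below 8 h and 30 h as well. CLN1 fell from 30 h to 60 h (log2 change -0.89 ± 0.22 (SE), adjusted p = 0.0088), a decrease of 1.85-fold, and was lower at 102 h than at 8 h (log2 change -0.60 ± 0.20 (SE), adjusted p = 0.020). When the 3 arrays were left out, these changes were -1.02 (adjusted p = 0.0041) and -0.55 (adjusted p = 0.012). In that fit CLN1 was higher at 102 h than at 80 h (log2 change 0.53, adjusted p = 0.012), where the fit of all arrays gave 0.53 (adjusted p = 0.080). The CLN1 call from 30 h to 60 h ended without 30 h replicate 2 (log2 change -0.73, adjusted p = 0.12). The CLN1 call from 8 h to 102 h ended without any 1 of 8 h replicate 1 and 102 h replicate 3 (log2 changes -0.55 to -0.52, adjusted p = 0.059 to 0.079).

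CLN2 signal was 177, 238 and 247 at 8 h, 145 and 280.4 at 30 h, 107, 139.6 and 134 at 60 h, 98.5, 76.6 and 61.8 at 80 h and 128, 143 and 96.9 at 102 h. The 80 h arrays were among the lowest, overlapping only 102 h replicate 3, and the 30 h arrays lay far apart. CLN2 was lower at 102 h than at 8 h (log2 change -0.85 ± 0.25 (SE), adjusted p = 0.014), with no overlap between the groups. Its steps from 30 h to 60 h and from 60 h to 80 h did not pass (log2 -0.68 and -0.70, adjusted p = 0.092 and 0.067). After removal of the 3 arrays, the change from 8 h to 102 h was -1.003 (adjusted p = 0.0054), and the step from 80 h to 102 h was an increase of 0.64 (adjusted p = 0.044). The CLN2 call from 8 h to 102 h ended without 102 h replicate 3 (log2 change -0.69, adjusted p = 0.065).

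CLN3 signal was 149, 367 and 415 at 8 h, 526 and 471 at 30 h, 187, 390.0 and 519 at 60 h, 787, 701 and 709 at 80 h and 734, 862 and 815 at 102 h. Every array of 80 h and 102 h lay above every earlier array, and 8 h replicate 1 and 60 h replicate 1, both of low 5′ signal, were the dimmest. CLN3 rose from 60 h to 80 h (log2 change 1.12 ± 0.37 (SE), adjusted p = 0.0470) and was 2.83-fold higher at 102 h than at 8 h (log2 change 1.50 ± 0.37 (SE), adjusted p = 0.0045). In the fit without the 3 arrays, these changes were smaller, at 0.49 (adjusted p = 0.018) and 1.04 (adjusted p = 4.6e-06). The CLN3 call from 60 h to 80 h ended without any single array other than 8 h replicates 1 or 3 or 60 h replicate 3 (log2 changes 0.70 to 1.23, adjusted p = 0.0520 to 0.15) and with arrays centred on their medians (1.11, adjusted p = 0.0543). The change from 8 h to 102 h kept its call with any single array left out (log2 change 1.04 to 1.78).

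Of the S-phase cyclins, which with Cdc28 trigger origin firing, CLB5 was higher late and CLB6 was too dim to test. CLB5 signal was 102, 95.9 and 98.3 at 8 h, 175 and 91.7 at 30 h, 358, 178 and 132 at 60 h, 223, 192 and 198 at 80 h and 209, 239 and 248 at 102 h. The 102 h arrays all lay above the 8 h arrays, while the 60 h arrays were spread widely and 60 h replicate 1 was the highest of all 14. CLB5 was 2.35-fold higher at 102 h than at 8 h (log2 change 1.23 ± 0.30 (SE), adjusted p = 0.0044), and 1.25 (adjusted p = 0.00024) without the 3 arrays. No step between neighbouring times passed. CLB6 exceeded the background threshold on 3 of 14 arrays, with signals from 7.75 to 23.8, and no change is given for it.

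SWI4, the DNA-binding subunit of SBF, was high at 60 h and 80 h and low at the other times. SWI4 signal was 27.5, 18.7 and 21.8 at 8 h, 17.9 and 21.3 at 30 h, 81.8, 77.4 and 88.9 at 60 h, 92.9, 72.3 and 90.3 at 80 h and 22.6, 43.2 and 32.9 at 102 h. The 60 h and 80 h arrays all lay above all others, and of the 8 h and 30 h arrays only 8 h replicate 1 exceeded the background threshold of 22.1. SWI4 rose at least 3.73-fold from 30 h to 60 h (measured log2 change 2.08 ± 0.29 (SE), adjusted p = 0.00029) and fell 2.66-fold from 80 h to 102 h (log2 change -1.41 ± 0.26 (SE), adjusted p = 0.0037). Neither 30 h array was above background for SWI4, and the bound sets these arrays at the lowest signal above the background threshold. Without the 3 arrays the values were 2.19 (adjusted p = 0.0012) and -1.41 (adjusted p = 0.0011). Both calls held with every single array left out and on all the scales tried. The values at 8 h and 102 h did not pass (log2 change 0.51 ± 0.26 (SE), adjusted p = 0.12).

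SWI6, the subunit that SBF and MBF share, took a different course. SWI6 signal was 170.3, 109 and 117 at 8 h, 94.6 and 104 at 30 h, 73.1, 69.5 and 69.4 at 60 h, 59.6, 70.8 and 57.7 at 80 h and 65.7, 53.5 and 56.8 at 102 h. All 8 h arrays lay above all later ones, and the arrays of 60 h, 80 h and 102 h all lay below those of 30 h. SWI6 was 2.22-fold lower at 102 h than at 8 h (log2 change -1.15 ± 0.18 (SE), adjusted p = 0.00024), and -0.95 (adjusted p = 0.00040) without the 3 arrays. No single step passed.

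MBP1, the DNA-binding subunit of MBF, varied less. MBP1 signal was 310.0, 251 and 256 at 8 h, 298 and 291 at 30 h, 239, 167 and 203 at 60 h, 166, 177 and 228 at 80 h and 219, 245 and 256 at 102 h. The 30 h arrays lay above all 60 h arrays. MBP1 fell from 30 h to 60 h (log2 change -0.55 ± 0.18 (SE), adjusted p = 0.037), and the log2 change was -0.54 (adjusted p = 0.040) without the 3 arrays. In that fit MBP1 was also higher at 102 h than at 80 h (log2 change 0.35, adjusted p = 0.037). The MBP1 call from 30 h to 60 h ended without any 1 of 30 h replicates 1 and 2, 60 h replicate 2, 80 h replicate 2 and 102 h replicate 2 (log2 changes -0.57 to -0.42, adjusted p = 0.0511 to 0.15) and on the authors' deposited scale (-0.48, adjusted p = 0.079). Its log2 change from 8 h to 102 h was -0.18 (95% interval -0.53 to 0.17). Whether the courses of SWI4, SWI6 and MBP1 differed from each other was not tested.

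WHI5 encodes the repressor of SBF, and its calls differed with and without the 3 arrays of low 5′ signal. WHI5 signal was 12.2, 56.3 and 81.9 at 8 h, 61.6 and 62.5 at 30 h, 8.71, 6.94 and 53.2 at 60 h, 37.2, 38.2 and 43.2 at 80 h and 95.4, 98.2 and 114 at 102 h. The 3 arrays below background were exactly those of low 5′ signal, and the 102 h arrays lay above all others. WHI5 passed the F-test with all arrays (adjusted p = 0.036), a call that ended without any single array other than 8 h replicates 1, 2 or 3 or 60 h replicate 3 (adjusted p up to 0.12). No comparison passed with all arrays: the log2 changes were -2.07 from 30 h to 60 h, 1.42 from 60 h to 80 h and 1.41 from 8 h to 102 h. When the 3 arrays were left out, WHI5 was higher at 102 h than at 80 h (log2 change 1.37, adjusted p = 0.00013) and than at 8 h (log2 change 0.59, adjusted p = 0.022). In that fit the log2 change from 30 h to 60 h was -0.22 (adjusted p = 0.56).

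**Figure D3:**
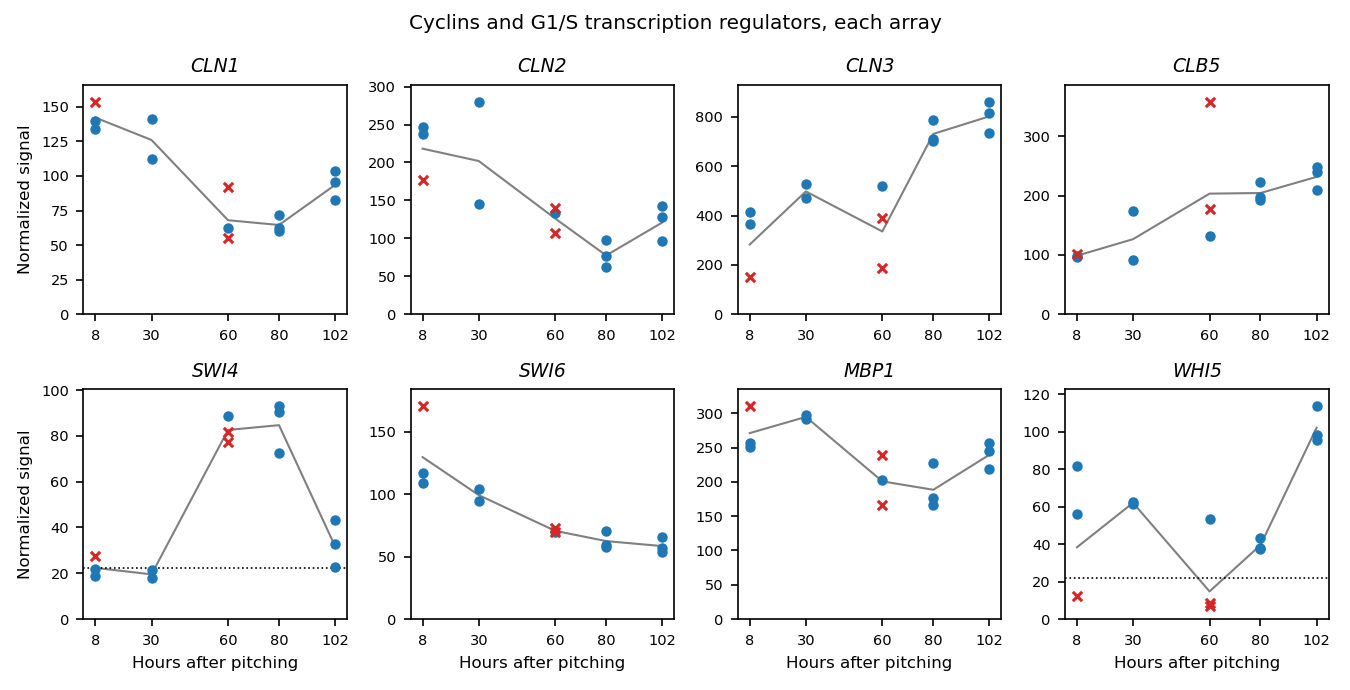
Normalized signal (y axis, linear from 0, its own scale for each gene) against hours after pitching (x axis) for the cyclins and G1/S transcription regulators; points are arrays, red crosses the 3 arrays of low 5′ signal, lines join the geometric means and the dotted line is the background threshold of 22.1. SWI4 is high at 60 h and 80 h, CLN3 rises late and the WHI5 crosses lie below background.

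Ribonucleotide reductase makes the deoxynucleotides for replication. Its large subunit genes RNR1 and RNR3 were higher at 102 h than at 8 h, and its small subunit genes RNR2 and RNR4 did not pass with all arrays. RNR1 signal was 44.8, 40.6 and 55.5 at 8 h, 79.3 and 60.5 at 30 h, 91.7, 98.1 and 95.02 at 60 h, 102, 89.0 and 88.6 at 80 h and 148, 127 and 119 at 102 h. The 8 h arrays were the 3 lowest and the 102 h arrays the 3 highest, and the other times lay between them. RNR1 was 2.81-fold higher at 102 h than at 8 h (log2 change 1.49 ± 0.17 (SE), adjusted p = 2.0e-05), and 1.46 (adjusted p = 3.5e-05) without the 3 arrays. The call held with every single array left out, and no step between neighbouring times passed with all arrays. RNR1 rose from 80 h to 102 h without the 3 arrays (log2 change 0.49, adjusted p = 0.036).

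RNR3, a paralog of RNR1 known for its induction by DNA damage, changed late. RNR3 signal was 293, 352 and 379 at 8 h, 317 and 329.6 at 30 h, 305, 287 and 246 at 60 h, 402, 422 and 396 at 80 h and 583, 489 and 580.1 at 102 h. The arrays of 80 h lay above all earlier ones, and those of 102 h above all of 80 h. RNR3 rose from 60 h to 80 h (log2 change 0.55 ± 0.13 (SE), adjusted p = 0.012) and from 80 h to 102 h (log2 change 0.43 ± 0.13 (SE), adjusted p = 0.042), and was 1.62-fold higher at 102 h than at 8 h (log2 change 0.69 ± 0.13 (SE), adjusted p = 0.00087). After removal of the 3 arrays, these were 0.73 (adjusted p = 0.0020), 0.43 (adjusted p = 0.0026) and 0.59 (adjusted p = 0.00032), and a decrease from 30 h to 60 h passed too, at -0.40 (adjusted p = 0.043). The RNR3 call from 80 h to 102 h ended without any single array other than 8 h replicates 1 or 3, 30 h replicates 1 or 2 or 60 h replicates 1 or 3 (log2 changes 0.39 to 0.52, adjusted p = 0.0512 to 0.14) and on the authors' deposited scale (0.09, adjusted p = 0.73). The RNR3 call from 60 h to 80 h ended without 80 h replicate 2 (log2 change 0.52, adjusted p = 0.0544).

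RNR2 and RNR4 are given by array although they did not pass, a choice made after their values were seen. RNR2 signal was 910.3, 1805 and 1880.3 at 8 h, 1304 and 1537 at 30 h, 569, 1206 and 1288 at 60 h, 1699, 1791 and 1686 at 80 h and 1541, 1441 and 1444 at 102 h. RNR4 signal was 1105, 3324 and 3219 at 8 h, 3276 and 3082 at 30 h, 1412, 3173 and 3771 at 60 h, 4412, 4503 and 4604 at 80 h and 3864, 3938 and 3771 at 102 h. In both genes 8 h replicate 1 and 60 h replicate 1 were far below their fellow arrays, and 60 h replicate 2 was not. With all arrays the log2 change from 8 h to 102 h was 0.02 for RNR2 (95% interval -0.62 to 0.66) and 0.76 for RNR4 (-0.07 to 1.59). In the fit without the 3 arrays, RNR2 was lower at 102 h than at 8 h (log2 change -0.32, adjusted p = 0.0071), and RNR4 was higher (log2 change 0.24, adjusted p = 0.013). In that fit RNR2 also fell from 8 h to 30 h (log2 change -0.38, adjusted p = 0.036), rose from 60 h to 80 h (0.42, adjusted p = 0.017) and fell from 80 h to 102 h (-0.23, adjusted p = 0.036). RNR4 fell in the last step (log2 change -0.22, adjusted p = 0.016).

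Among the polymerases, primase and clamp, 2 of 7 genes were higher at 102 h than at 8 h and 3 were lower (21.6% and 28.6% of all probe sets). POL30, which encodes the sliding clamp PCNA, had the lowest F-test p of the 7 (adjusted p = 0.00064). POL30 signal was 462, 485 and 529.9 at 8 h, 452 and 596 at 30 h, 349, 243 and 244 at 60 h, 251, 275 and 296 at 80 h and 279, 350.5 and 316 at 102 h. Every array of 60 h and later lay below every array of 8 h and 30 h. POL30 fell 1.89-fold from 30 h to 60 h (log2 change -0.92 ± 0.18 (SE), adjusted p = 0.0030) and was lower at 102 h than at 8 h (log2 change -0.65 ± 0.16 (SE), adjusted p = 0.0056). With those 3 arrays left out, the changes were -1.09 (adjusted p = 0.00088) and -0.69 (adjusted p = 0.00079). The POL30 call from 30 h to 60 h ended without 30 h replicate 2 (log2 change -0.72, adjusted p = 0.062).

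POL12, the B subunit of polymerase alpha, moved the other way in the same step. POL12 signal was 204, 185 and 159.8 at 8 h, 144 and 139 at 30 h, 324, 236 and 206 at 60 h, 206, 217 and 222 at 80 h and 186, 233 and 241 at 102 h. The 30 h arrays were the lowest of all 14, and 60 h replicate 1, of low 5′ signal, was the highest. POL12 rose from 30 h to 60 h (log2 change 0.82 ± 0.19 (SE), adjusted p = 0.0065), and the log2 change was 0.54 (adjusted p = 0.034) without the 3 arrays. In that fit POL12 was also higher at 102 h than at 8 h (log2 change 0.35, adjusted p = 0.038). The POL12 call from 30 h to 60 h ended without 30 h replicate 2 (log2 change 0.80, adjusted p = 0.062). POL2, the catalytic subunit of polymerase epsilon on the leading strand, had signal of 175, 179 and 189.7 at 8 h, 235 and 258 at 30 h, 349, 295 and 268 at 60 h, 298, 266 and 258 at 80 h and 255, 238 and 215 at 102 h. The 8 h arrays were the 3 lowest. POL2 was higher at 102 h than at 8 h (log2 change 0.38 ± 0.13 (SE), adjusted p = 0.026), and 0.35 (adjusted p = 0.018) without the 3 arrays. The POL2 call from 8 h to 102 h ended without any 1 of 8 h replicates 1 and 2 and 102 h replicates 1 and 2 (log2 changes 0.32 to 0.37, adjusted p = 0.061 to 0.10) and on the authors' deposited scale (0.29, adjusted p = 0.14).

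The primase genes PRI1 and PRI2 differed in sign between 8 h and 102 h. PRI2, the large subunit, had signal of 95.2, 109 and 110.2 at 8 h, 123 and 115 at 30 h, 113, 133 and 116 at 60 h, 168, 176 and 138 at 80 h and 182, 135 and 136 at 102 h. The 102 h arrays lay above all 8 h arrays. PRI2 was higher at 102 h (log2 change 0.52 ± 0.16 (SE), adjusted p = 0.015), and 0.45 (adjusted p = 0.028) without the 3 arrays. The PRI2 call from 8 h to 102 h ended without 102 h replicate 1 (log2 change 0.38, adjusted p = 0.080) and on the authors' deposited scale (0.45, adjusted p = 0.084). PRI1, the catalytic subunit, ran from 346 to 411 at 8 h and from 248 to 290.5 at 102 h. These ranges did not overlap, and PRI1 was lower at 102 h (log2 change -0.45 ± 0.14 (SE), adjusted p = 0.017), with -0.38 (adjusted p = 0.0078) in the fit without the 3 arrays. The PRI1 call from 8 h to 102 h ended without any 1 of 8 h replicate 1 and 102 h replicate 1 (log2 changes -0.39 to -0.38, adjusted p = 0.059 to 0.073). The difference between PRI1 and PRI2 was not tested.

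POL3, the catalytic subunit of polymerase delta, ran from 267 to 388 at 8 h and from 197 to 249.6 at 102 h. The groups did not overlap, but 8 h replicate 1 stood well above the other arrays. POL3 was lower at 102 h than at 8 h (log2 change -0.44 ± 0.17 (SE), adjusted p = 0.042), and without the 3 arrays it was -0.27 (adjusted p = 0.075) and did not pass. The POL3 call from 8 h to 102 h ended without any single array other than 8 h replicates 2 or 3, 60 h replicates 1, 2 or 3 or 102 h replicate 3 (log2 changes -0.46 to -0.27, adjusted p = 0.0503 to 0.18) and with arrays centred on their medians (-0.43, adjusted p = 0.059). POL1, the catalytic subunit of polymerase alpha, passed no test with all arrays. Its log2 change from 8 h to 102 h was -0.21 (95% interval -0.56 to 0.13). Without the 3 arrays POL1 rose from 60 h to 80 h (log2 change 0.47, adjusted p = 0.025) and fell from 80 h to 102 h (-0.28, adjusted p = 0.034).

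All 3 subunit genes of replication protein A, which coats single-stranded DNA, passed the F-test (68.5% of all probe sets), and 2 of 3 were lower at 102 h than at 8 h (28.6% of all). RFA1 signal was 343, 307 and 314 at 8 h, 297 and 312 at 30 h, 414, 384 and 443 at 60 h, 294, 361 and 283 at 80 h and 240.3, 254 and 216 at 102 h. The 60 h arrays were the 3 highest and the 102 h arrays the 3 lowest of the 14. RFA1 rose from 30 h to 60 h (log2 change 0.44 ± 0.14 (SE), adjusted p = 0.034) and fell in the later steps (log2 change -0.41 ± 0.13 (SE), adjusted p = 0.037 to 80 h, and log2 change -0.40 ± 0.13 (SE), adjusted p = 0.0497 to 102 h). It was lower at 102 h than at 8 h (log2 change -0.44 ± 0.13 (SE), adjusted p = 0.011). After removal of the 3 arrays, these 4 changes were 0.54 (adjusted p = 0.022), -0.51 (adjusted p = 0.031), -0.40 (adjusted p = 0.011) and -0.39 (adjusted p = 0.014). The RFA1 call from 30 h to 60 h ended without any 1 of 30 h replicates 1 and 2 and 60 h replicate 3 (log2 changes 0.39 to 0.48, adjusted p = 0.067 to 0.13). The RFA1 call from 60 h to 80 h ended without any single array other than 8 h replicate 1, 30 h replicates 1 or 2, 80 h replicate 2 or 102 h replicate 3 (log2 changes -0.46 to -0.34, adjusted p = 0.0503 to 0.13) and on the authors' deposited scale (-0.11, adjusted p = 0.64). The RFA1 call from 80 h to 102 h ended without any single array other than 8 h replicate 1 or 60 h replicates 1 or 3 (log2 changes -0.47 to -0.29, adjusted p = 0.0547 to 0.21) and with arrays centred on their medians (-0.40, adjusted p = 0.058). The RFA1 call from 8 h to 102 h ended without 102 h replicate 3 (log2 change -0.38, adjusted p = 0.0539).

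RFA2 signal was 564, 491 and 512 at 8 h, 419 and 576 at 30 h, 482, 517 and 453 at 60 h, 274, 315 and 307 at 80 h and 325, 379.7 and 317 at 102 h. The arrays of 80 h and 102 h all lay below every earlier array. RFA2 fell 1.62-fold from 60 h to 80 h (log2 change -0.70 ± 0.14 (SE), adjusted p = 0.0047) and was lower at 102 h than at 8 h (log2 change -0.62 ± 0.14 (SE), adjusted p = 0.0026). In the fit without the 3 arrays, the changes were -0.60 (adjusted p = 0.024) and -0.56 (adjusted p = 0.0031). The RFA2 call from 60 h to 80 h ended on the authors' deposited scale (-0.41, adjusted p = 0.10). RFA3 signal was 482, 403 and 382 at 8 h, 419 and 502 at 30 h, 828, 453 and 344 at 60 h, 318, 340.1 and 299 at 80 h and 299.9, 295 and 258 at 102 h. The value of 60 h replicate 1 stood far above the others, and the 102 h arrays lay below all 8 h arrays. RFA3 passed the F-test (adjusted p = 0.035), a call that ended without any 1 of 30 h replicate 2, 80 h replicates 1, 2 and 3 and 102 h replicates 1, 2 and 3 (adjusted p up to 0.092). Its log2 change from 8 h to 102 h was -0.57 (adjusted p = 0.067), and -0.47 (adjusted p = 0.0032) without the 3 arrays.

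Of the 5 genes of replication factor C, the clamp loader, 1 was lower at 102 h than at 8 h and 0 were higher (28.6% and 21.6% of all probe sets). RFC5 signal was 327, 376 and 276 at 8 h, 141 and 239 at 30 h, 172, 112 and 92.0 at 60 h, 116, 155 and 132 at 80 h and 161, 148 and 99.1 at 102 h. All 8 h arrays lay above all other arrays. RFC5 was 2.43-fold lower at 102 h than at 8 h (log2 change -1.28 ± 0.27 (SE), adjusted p = 0.0015), the lowest log2 change among the 43 genes in this comparison. It was -1.28 (adjusted p = 0.00075) without the 3 arrays, and the call held with every single array left out. Its arrays at 30 h lay apart, and its step from 8 h to 30 h did not pass (log2 -0.82, adjusted p = 0.21). RFC5 fell from 30 h to 60 h without the 3 arrays (log2 change -0.9999, adjusted p = 0.037).

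The other clamp loader genes moved less. RFC1, the large subunit, had signal of 156, 156 and 133 at 8 h, 118 and 144 at 30 h, 135, 109.8 and 93.9 at 60 h, 82.7, 106 and 103 at 80 h and 123, 123 and 122 at 102 h. The 60 h and 80 h arrays lay mostly below those of 8 h, and the groups were close. RFC1 passed the F-test (adjusted p = 0.042), as did RFC3 (adjusted p = 0.0476). The RFC1 call ended without any single array other than 30 h replicate 1 or 60 h replicates 1 or 3 (adjusted p up to 0.12). That of RFC3 ended without any single array other than 8 h replicate 1, 30 h replicates 1 or 2 or 80 h replicate 2 (adjusted p up to 0.13). RFC2 and RFC4 passed nothing with all arrays. The log2 changes from 8 h to 102 h were -0.27, -0.03, -0.10 and -0.06 for RFC1 to RFC4, with 95% intervals of -0.63 to 0.08, -0.43 to 0.37, -0.44 to 0.24 and -0.41 to 0.29. RFC3 was higher at 102 h than at 80 h without the 3 arrays (log2 change 0.37, adjusted p = 0.044).

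The 6 MCM genes encode the ring of the replicative helicase, and they did not share 1 course. MCM2 signal was 245, 259 and 297 at 8 h, 247 and 309.6 at 30 h, 135, 126 and 130.0 at 60 h, 179, 196 and 188 at 80 h and 226, 178 and 178 at 102 h. The 60 h arrays were the 3 lowest, and every array from 60 h on lay below every array of 8 h and 30 h. MCM2 fell 2.12-fold from 30 h to 60 h (log2 change -1.09 ± 0.15 (SE), adjusted p = 0.00034) and rose from 60 h to 80 h (log2 change 0.53 ± 0.14 (SE), adjusted p = 0.018). It was lower at 102 h than at 8 h (log2 change -0.47 ± 0.14 (SE), adjusted p = 0.013). With those 3 arrays left out, the values were -1.09 (adjusted p = 0.0011), 0.53 (adjusted p = 0.0512) and -0.53 (adjusted p = 0.0063). The fall held with every single array left out. The MCM2 call from 60 h to 80 h ended without any 1 of 60 h replicate 2 and 80 h replicates 2 and 3 (log2 changes 0.49 to 0.52, adjusted p = 0.0536 to 0.074). The MCM2 call from 8 h to 102 h ended without any 1 of 8 h replicate 3 and 102 h replicates 2 and 3 (log2 changes -0.41 to -0.39, adjusted p = 0.056 to 0.060).

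MCM7 signal was 282, 339 and 377 at 8 h, 317 and 336 at 30 h, 271, 289 and 285 at 60 h, 349.5, 361 and 388 at 80 h and 211, 243 and 192 at 102 h. The 102 h arrays were the 3 lowest of the 14. MCM7 fell 1.71-fold from 80 h to 102 h (log2 change -0.77 ± 0.13 (SE), adjusted p = 0.0028) and was lower at 102 h than at 8 h (log2 change -0.62 ± 0.13 (SE), adjusted p = 0.0018). When the 3 arrays were left out, these were -0.77 (adjusted p = 0.00016) and -0.74 (adjusted p = 0.00014), and both calls held with every single array left out. MCM4 signal was 225, 204 and 188 at 8 h, 183 and 174 at 30 h, 139, 169 and 146 at 60 h, 146, 159.7 and 173 at 80 h and 185, 204 and 179 at 102 h. The 8 h and 102 h arrays overlapped, and those of 60 h and 80 h were lower. MCM4 passed the F-test (adjusted p = 0.039) but not without the 3 arrays (adjusted p = 0.066), nor without any single array other than 8 h replicate 3, 30 h replicates 1 or 2, 60 h replicate 2 or 80 h replicate 3 (adjusted p up to 0.084).

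MCM3, MCM5 and MCM6 passed no test with all arrays. MCM3, named by array after its values were seen, had signal of 59.2, 162 and 159.9 at 8 h, 167 and 159 at 30 h, 114, 197 and 201 at 60 h, 188, 179 and 154 at 80 h and 194, 200.4 and 196 at 102 h. The value of 8 h replicate 1 was well under its fellow arrays, and 60 h replicate 1 was under the other 60 h arrays. Its log2 change from 8 h to 102 h was 0.77 (adjusted p = 0.063), and it passed without the 3 arrays, at 0.29 (adjusted p = 0.0465). For MCM5 and MCM6 the log2 changes were -0.43 and -0.20, with 95% intervals of -0.92 to 0.07 and -0.51 to 0.11. Differences between the MCM genes were not tested.

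CDC45, which joins the helicase when origins fire, ran from 28.0 to 38.6 at 30 h and from 52.3 to 107 at 60 h. The groups did not overlap. CDC45 rose from 30 h to 60 h (log2 change 1.20 ± 0.39 (SE), adjusted p = 0.037), but without the 3 arrays the value was 0.67 (adjusted p = 0.26) and did not pass. The CDC45 call from 30 h to 60 h ended without any 1 of 30 h replicates 1 and 2, 60 h replicates 1 and 2, 80 h replicate 2 and 102 h replicate 1 (log2 changes 0.95 to 1.43, adjusted p = 0.0508 to 0.19), on the authors' deposited scale (0.86, adjusted p = 0.067) and with arrays centred on their medians (0.73, adjusted p = 0.12). CDC6, the helicase loader, was dim, with signals from 15.0 to 64.9. Its 8 h replicate 1 array was lower than its fellows and its log2 change from 8 h to 102 h was 0.85 (95% interval -0.13 to 1.83).

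The genes of the 2 enzymes that finish Okazaki fragments passed the F-test (68.5% of all probe sets), and their steps from 30 h to 60 h had opposite signs. RAD27, the flap endonuclease, had signal of 453, 348 and 340.3 at 8 h, 325 and 303 at 30 h, 439, 803 and 655 at 60 h, 555, 578 and 784 at 80 h and 242, 228 and 269 at 102 h. The arrays of 80 h and 2 of the 3 of 60 h lay above all others, and the 102 h arrays were the 3 lowest. RAD27 rose from 30 h to 60 h (log2 change 0.97 ± 0.23 (SE), adjusted p = 0.0081), fell 2.57-fold from 80 h to 102 h (log2 change -1.36 ± 0.21 (SE), adjusted p = 0.0017) and was lower at 102 h than at 8 h (log2 change -0.62 ± 0.21 (SE), adjusted p = 0.025). Without the 3 arrays these were 1.06 (adjusted p = 0.0011), -1.36 (adjusted p = 1.3e-05) and -0.49 (adjusted p = 0.0087). The RAD27 call from 30 h to 60 h ended without 30 h replicate 2 (log2 change 0.92, adjusted p = 0.081). The RAD27 call from 8 h to 102 h ended without any 1 of 8 h replicate 1 and 102 h replicates 1 and 2 (log2 changes -0.61 to -0.49, adjusted p = 0.064 to 0.092).

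CDC9, the DNA ligase, had signal of 228, 211 and 205 at 8 h, 168 and 221 at 30 h, 164, 131 and 109 at 60 h, 185, 161 and 183 at 80 h and 185, 157 and 158 at 102 h. The 60 h arrays lay below all 30 h arrays. CDC9 fell from 30 h to 60 h (log2 change -0.54 ± 0.18 (SE), adjusted p = 0.042), and the value was -0.82 (adjusted p = 0.0060) without the 3 arrays. The CDC9 call from 30 h to 60 h ended without any single array other than 8 h replicate 1, 30 h replicate 1 or 60 h replicate 1 (log2 changes -0.54 to -0.34, adjusted p = 0.0521 to 0.36) and on the authors' deposited scale (-0.50, adjusted p = 0.0540). In the fit without the 3 arrays, CDC9 then rose from 60 h to 80 h (log2 change 0.69, adjusted p = 0.016).

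Of the 6 origin recognition complex genes, 2 were lower and 0 higher at 102 h than at 8 h (28.6% and 21.6% of all probe sets). ORC2 signal was 326, 362 and 356 at 8 h, 258 and 282 at 30 h, 271, 263 and 213 at 60 h, 189, 195 and 162 at 80 h and 234, 265 and 260.1 at 102 h. The 80 h arrays were the 3 lowest, and the 8 h arrays the 3 highest. ORC2 fell from 60 h to 80 h (log2 change -0.45 ± 0.13 (SE), adjusted p = 0.028), rose from 80 h to 102 h (log2 change 0.48 ± 0.13 (SE), adjusted p = 0.026) and was lower at 102 h than at 8 h (log2 change -0.46 ± 0.13 (SE), adjusted p = 0.010). With those 3 arrays left out, the values were -0.23 (adjusted p = 0.28), 0.48 (adjusted p = 0.0028) and -0.51 (adjusted p = 0.0020). The ORC2 call from 60 h to 80 h ended without any 1 of 60 h replicates 1 and 2 and 80 h replicates 1, 2 and 3 (log2 changes -0.50 to -0.37, adjusted p = 0.0541 to 0.11) and on the authors' deposited scale (-0.10, adjusted p = 0.64). The ORC2 call from 80 h to 102 h ended without any 1 of 80 h replicates 1, 2 and 3 and 102 h replicates 2 and 3 (log2 changes 0.40 to 0.53, adjusted p = 0.0538 to 0.12) and on the authors' deposited scale (0.12, adjusted p = 0.60).

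ORC1 ran from 289 to 442 at 8 h and from 149 to 216 at 102 h, with no overlap. ORC1 was lower at 102 h (log2 change -0.86 ± 0.22 (SE), adjusted p = 0.0066), and -0.66 (adjusted p = 0.0072) without the 3 arrays. In that fit ORC1 also fell from 80 h to 102 h (log2 change -0.45, adjusted p = 0.043). The call from 8 h to 102 h held with every single array left out, and the F-test call (adjusted p = 0.0453) ended without any single array other than 8 h replicate 2, 60 h replicates 1, 2 or 3 or 80 h replicate 3 (adjusted p up to 0.16). ORC6 ran from 174 to 202 at 30 h and from 252 to 446 at 60 h, with 60 h replicate 1 far above the others. ORC6 rose in this step (log2 change 0.71 ± 0.23 (SE), adjusted p = 0.038), and without the 3 arrays the value was 0.42 (adjusted p = 0.060). The ORC6 call from 30 h to 60 h ended without any single array other than 8 h replicates 1, 2 or 3, 60 h replicates 2 or 3 or 80 h replicate 3 (log2 changes 0.44 to 0.81, adjusted p = 0.0504 to 0.17). ORC3, ORC4 and ORC5 passed nothing with all arrays. Their log2 changes from 8 h to 102 h were 0.34, 0.46 and -0.42, with 95% intervals of -0.24 to 0.91, -1.10 to 2.03 and -0.87 to 0.04. ORC4 exceeded background on 3 of 14 arrays, and its interval was wide. ORC3 passed without the 3 arrays, at 0.56 (adjusted p = 0.040).

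**Figure D4:**
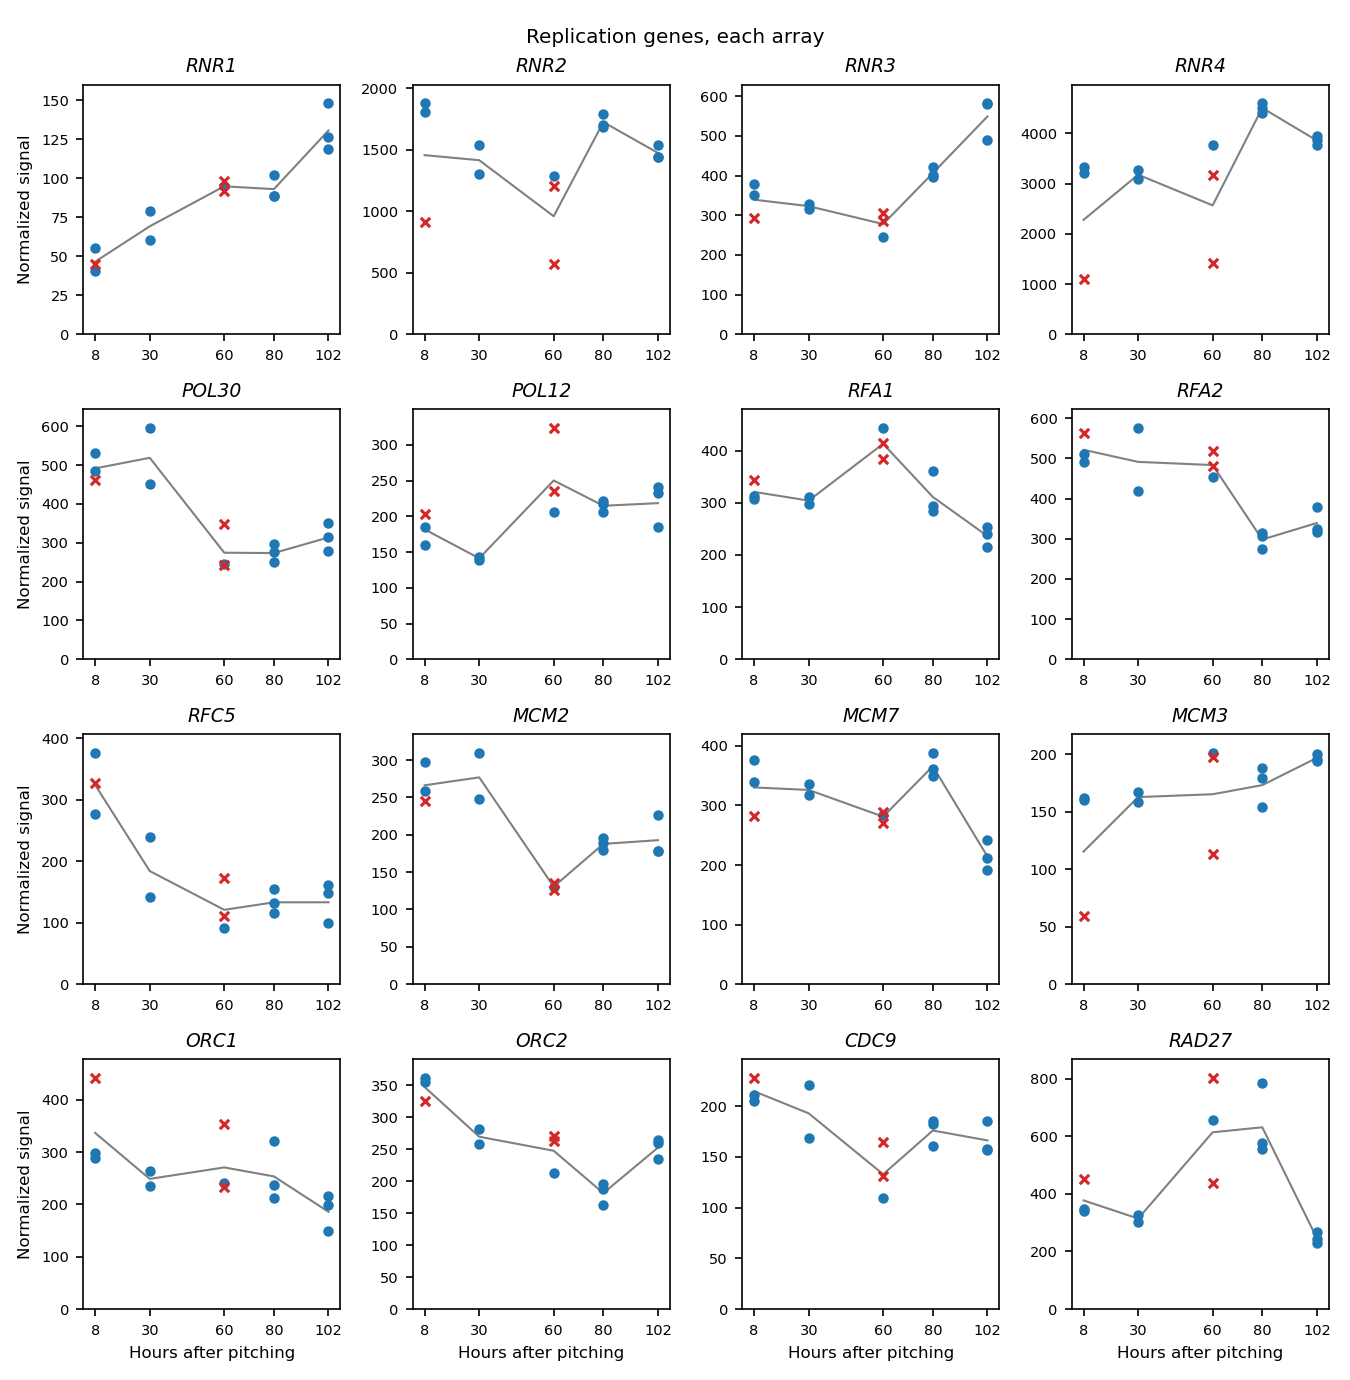
Normalized signal (y axis, linear from 0, its own scale for each gene) against hours after pitching (x axis) for 16 replication genes; points are arrays, red crosses the 3 arrays of low 5′ signal and lines join the geometric means. RNR1 and RNR3 end highest, MCM2 and POL30 drop between 30 h and 60 h, and the crosses of 8 h replicate 1 and 60 h replicate 1 lie under the other points of their times for RNR2, RNR4 and MCM3.

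In all, 31 of the 43 genes passed the F-test or 1 of the comparisons, and 12 passed neither. The 12 were RNR2, RNR4, POL1, RFC2, RFC4, MCM3, MCM5, MCM6, CDC6, ORC3, ORC4 and ORC5. The share of all probe sets that passed either is not given here. By the F-test alone, 27 of the 43 genes and 68.5% of all probe sets passed. The comparisons made 43 calls, and 17 of these held with each of the 14 arrays left out in turn. For the 30 h to 60 h calls of CLN1, POL12, POL30 and RAD27, 30 h replicate 2 was the only array whose removal ended the call, and 60 h is compared there with 2 arrays of 30 h. On 30 h replicate 1, 32 of the 43 genes were lower than on replicate 2, as were 49.6% of all probe sets. The median log2 difference between these arrays was -0.16 for the 43 genes and 0.00 for all.

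On the arrays of low 5′ signal, a few of the genes were low together. On 8 h replicate 1, 6 of the 43 (14.0%) lay more than 1 log2 unit under the mean of the other 8 h arrays, with 6.41% of all probe sets. They were WHI5 (-2.48), RNR4 (-1.57), MCM3 (-1.44), CLN3 (-1.39), CDC6 (-1.14) and RNR2 (-1.02). On 60 h replicate 1, 4 of the 43 (9.30%) lay this far under 60 h replicate 3, with 10.5% of all: WHI5 (-2.61), CLN3 (-1.48), RNR4 (-1.42) and RNR2 (-1.18). All 4 were among the 6 of 8 h replicate 1. On 60 h replicate 2, whose 5′ signal was less reduced, 3 of the 43 (6.98%) lay this far under replicate 3, with 2.32% of all. They were WHI5 (-2.94), CDC6 (-1.41) and ORC4 (-1.03). CDC6 and ORC4 were near background. In the other direction, 0, 3 and 0 of the 43 lay more than 1 log2 unit above on these 3 arrays in turn. The shares of all probe sets were 2.02%, 6.01% and 0.787%. The 3 on 60 h replicate 1 were CLB5 (1.44), RFA3 (1.27) and CDC45 (1.03).

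**Figure D5:**
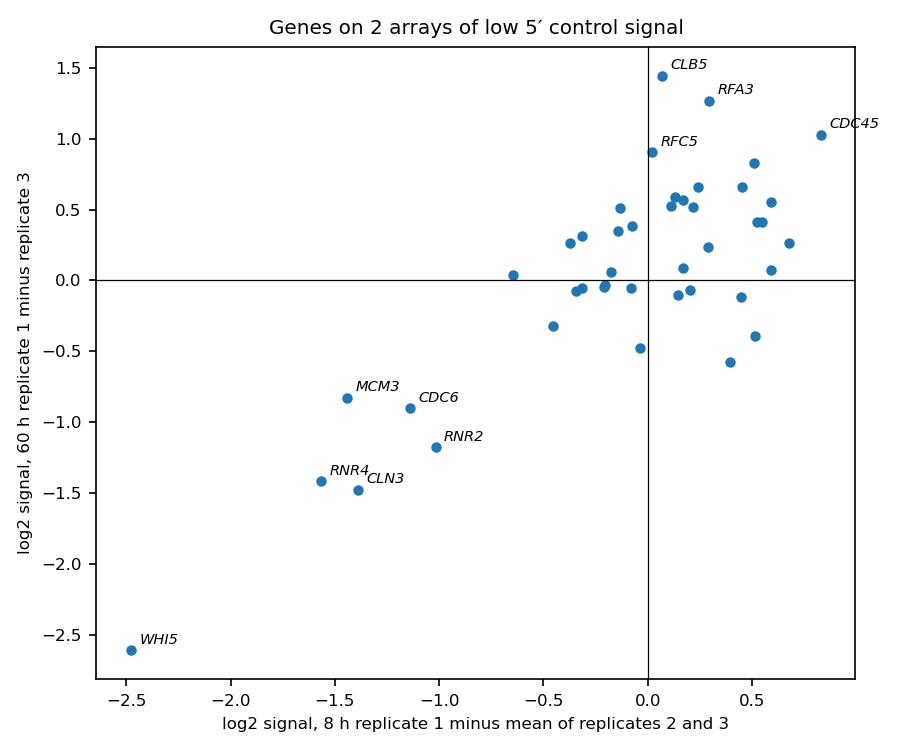
Log2 signal of each of the 43 genes on 8 h replicate 1 minus the mean of the other 8 h arrays (x axis), against 60 h replicate 1 minus 60 h replicate 3 (y axis); each point is a gene. WHI5, RNR4, CLN3, RNR2, CDC6 and MCM3 lie low on both arrays, and most genes lie near or above 0.

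Genes of the same pathways outside the 44 were taken from 4 lists. Of 15 other SBF and MBF targets tested, 2 were higher and 4 lower at 102 h than at 8 h. The shares of all probe sets were 21.6% and 28.6%. From 30 h to 60 h, 6 of the 15 fell and 0 rose (11.7% and 16.2% of all). In this step their median log2 change was -0.71, and 7 had an unadjusted p under 0.05, counting both directions. Of all 5338 probe sets, 2167 had such a p from 30 h to 60 h. The named ones are mostly cell wall genes, which are known SBF targets. SRL1, a cell wall mannoprotein gene, had signal of 562, 1169.9 and 1244 at 8 h, 245 and 602.3 at 30 h, 76.8, 152 and 91.0 at 60 h, 122, 105 and 86.6 at 80 h and 165, 184 and 180.4 at 102 h. The 60 h and later arrays all lay under every 8 h and 30 h array, and SRL1 fell 3.76-fold (log2 change -1.91 ± 0.40 (SE), adjusted p = 0.0037). SCW10, which encodes a cell wall glucanase-like protein, fell 3.64-fold (log2 change -1.86 ± 0.25 (SE), adjusted p = 0.00023), and CRH1, which links chitin to glucan, fell 2.04-fold (log2 change -1.03 ± 0.26 (SE), adjusted p = 0.011) and rose again from 80 h to 102 h (log2 change 1.24 ± 0.23 (SE), adjusted p = 0.0044). TOS6 fell too (log2 change -1.79 ± 0.49 (SE), adjusted p = 0.016). In the fit of the other 11 arrays, the changes of SRL1, SCW10, CRH1 and TOS6 in this step were -2.08, -2.02, -1.05 and -1.43 (adjusted p = 0.0012, 0.00042, 0.025 and 0.013), and 7 of the 15 fell and 0 rose (15.6% and 17.8% of all). Without 30 h replicate 2 the calls of SRL1, CRH1 and TOS6 ended, at log2 changes of -1.26, -0.52 and -1.18 (adjusted p = 0.086, 0.21 and 0.23). HCM1, a forkhead transcription factor gene of S phase, was near or under background at every time other than 80 h. At 60 h, 1 of 3 arrays was above it. The filter on dim signal kept HCM1 only through its 80 h arrays, where it was highest. The p-value of its rise to 80 h is therefore not separate from that choice. HCM1 rose from 60 h to 80 h (measured log2 change 1.58 ± 0.39 (SE), adjusted p = 0.013), by at least 2.33-fold with the dim 60 h arrays set at the lowest signal above background. The call ended without 80 h replicate 1 (log2 change 1.44, adjusted p = 0.061) and without the 3 arrays (1.10, adjusted p = 0.15).

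Of 15 other regulators of G1/S, 5 were higher and 5 lower at 102 h than at 8 h (21.6% and 28.6% of all). CDC28, the kinase partner of the cyclins, had signal of 769.8, 832 and 776 at 8 h, 392 and 631 at 30 h, 335, 368 and 295 at 60 h, 301, 327 and 270.5 at 80 h and 267, 285 and 259 at 102 h. The 8 h arrays were the 3 highest and the 102 h arrays among the lowest, and CDC28 was 2.93-fold lower at 102 h (log2 change -1.55 ± 0.16 (SE), adjusted p = 9.9e-06). NRM1, a co-repressor of MBF, was lower as well (log2 change -1.59 ± 0.29 (SE), adjusted p = 0.00057). MSA1 and MSA2, activators that bind SBF and MBF, were higher (log2 change 1.10 ± 0.34 (SE), adjusted p = 0.017 and log2 change 1.45 ± 0.18 (SE), adjusted p = 3.9e-05). FAR1, the inhibitor of G1 cyclin and Cdc28 that acts in mating arrest, had signal of 50.0, 31.0 and 42.9 at 8 h, 43.8 and 39.0 at 30 h, 98.6, 97.2 and 138 at 60 h, 114, 114 and 123 at 80 h and 56.3, 57.9 and 64.6 at 102 h. Its 60 h and 80 h arrays were the 6 highest, as for SWI4. FAR1 rose from 30 h to 60 h (log2 change 1.41 ± 0.23 (SE), adjusted p = 0.00076) and fell from 80 h to 102 h (log2 change -0.97 ± 0.20 (SE), adjusted p = 0.0080). MSA1 had its 8 h replicate 1 and 60 h replicate 1 arrays far under their fellows, and its call ended without 8 h replicate 1 or 102 h replicate 2 (log2 changes 0.70 to 1.003, adjusted p = 0.059 to 0.074) and on the authors' scale. Of these regulators, 5 were higher and 4 lower at 102 h than at 8 h without the 3 arrays (28.6% and 33.7% of all). In that fit the changes of CDC28, NRM1, MSA1 and MSA2 were -1.57, -1.55, 0.70 and 1.46 (adjusted p = 5.6e-06, 0.00051, 0.00044 and 2.0e-05), and the rise of FAR1 from 30 h to 60 h was 1.74 (adjusted p = 0.00033).

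Of 13 genes of nucleotide supply and ribonucleotide reductase control, 3 were higher and 5 lower at 102 h than at 8 h (21.6% and 28.6% of all probe sets). HUG1, an inhibitor of ribonucleotide reductase known as a marker of the DNA damage response, had signal of 260.1, 412 and 398 at 8 h, 646 and 427 at 30 h, 746, 853 and 1031 at 60 h, 2190.0, 2328 and 2047 at 80 h and 1756, 1891 and 1657 at 102 h. Every 80 h and 102 h array lay above every earlier one. HUG1 was 5.05-fold higher at 102 h than at 8 h (log2 change 2.34 ± 0.20 (SE), adjusted p = 2.0e-06) and rose from 60 h to 80 h (log2 change 1.33 ± 0.20 (SE), adjusted p = 0.00084). RAD53, the checkpoint kinase, was 2.92-fold higher (log2 change 1.55 ± 0.22 (SE), adjusted p = 0.00011), and SML1, the inhibitor that binds Rnr1, was higher (log2 change 1.07 ± 0.24 (SE), adjusted p = 0.0026). CDC21, the thymidylate synthase, and DFR1, the dihydrofolate reductase, were lower (log2 change -1.31 ± 0.28 (SE), adjusted p = 0.0018 and log2 change -1.14 ± 0.15 (SE), adjusted p = 7.0e-05). These 5 calls from 8 h to 102 h held with every single array left out. Of the 13, 3 were higher and 6 lower without the 3 arrays (28.6% and 33.7% of all), and the changes of HUG1, RAD53, SML1, CDC21 and DFR1 were 2.12, 1.59, 0.86, -1.46 and -0.9997 (adjusted p = 2.1e-07, 2.7e-05, 0.00018, 8.8e-05 and 4.4e-05). HUG1 rose from 60 h to 80 h in that fit too (log2 change 1.084, adjusted p = 0.0013).

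Of 25 tested genes of origin firing and the fork outside the 44, 3 were higher and 7 lower at 102 h than at 8 h (21.6% and 28.6% of all probe sets). CTF18, of an alternative clamp loader, was 2.72-fold lower (log2 change -1.45 ± 0.26 (SE), adjusted p = 0.00061). POL31, a subunit of polymerase delta, and PSF1, of the GINS complex, were lower too (log2 change -0.83 ± 0.15 (SE), adjusted p = 0.00073 and log2 change -0.95 ± 0.21 (SE), adjusted p = 0.0022). SLD7 and MRC1 passed the F-test (adjusted p = 0.0081 and 0.043) and their log2 changes from 8 h to 102 h, -0.34 and -0.55, did not pass. Of the 25, 4 were higher and 8 lower without the 3 arrays (28.6% and 33.7% of all). In that fit the changes of CTF18, POL31 and PSF1 were -1.22, -0.75 and -0.89 (adjusted p = 3.8e-05, 0.00089 and 0.00011), and SLD7 and MRC1 passed, at -0.48 and -0.74 (adjusted p = 0.0489 and 0.033).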

How the data were processed

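RNA of 14 samples was hybridised to single-colour Affymetrix Yeast Genome 2.0 arrays. The authors deposited linear signal intensity, 1 value for each probe set. GCOS 5.0 is named in the submitters' processing notes, and no scaling target is stated in the sources used. Intensities were quantile normalized over all 10928 probe sets, and the 166 controls were then removed. Values under 5.60 were raised to 5.60 and log2 transformed. A probe set was tested if at least 2 arrays of some time exceeded 22.1, the 95th percentile of the signals at or below the median. Names came from the platform annotation, with symbols updated from RefSeq (assembly R64).

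Time means were fitted with limma 3.58.1 in R 4.3.3 (eBayes with an intensity trend), and p-values were adjusted by Benjamini-Hochberg over all 5338 probe sets, with a threshold of 0.05. The script was tested on simulated data. Each comparison uses the spread of all 14 arrays; the number of arrays limits the precision. No arrays held identical values. Samples were grouped by the time in their labels. The members and lists were chosen with earlier results of these data known. Signals were to be given by array for up to 25 genes that passed a test; 31 passed, and the 25 with the lowest F-test p were taken, an order chosen after values were seen. From each other list, up to 5 genes past the F-test with the widest spans are named. Alternatives covered normalization, filter, floor, variance trend, threshold, probe set choice, a 5′ to 3′ covariate, a replicate block and left-out arrays. Promoter and protein sequences were not analysed here.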

Additional observations from a re-analysis of the deposited data

How the results depend on the processing

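Of 1204 values of the 43 calls under the alternatives, 1023 kept the call, 181 ended it and 0 reversed. With p under 0.01, 16 genes changed over the 5 times. The share of all probe sets past the F-test at that threshold is not given, so this count cannot be set against it. From 30 h to 60 h, 3 rose and 3 fell (8.15% and 6.93% of all probe sets). From 60 h to 80 h, 0 rose and 1 fell (3.69% and 4.81%). From 80 h to 102 h, 0 rose and 3 fell (2.66% and 2.68%). At 102 h, 4 were higher and 6 lower than at 8 h (15.1% and 20.3%). On the authors' scale, 5 rose and 3 fell from 30 h to 60 h (18.3% and 9.59% of all). There, 9 rose and 0 fell to 80 h (21% and 3.3%), and 0 rose and 8 fell to 102 h (2.3% and 26.7%). The medians were -0.27 from 8 h to 30 h, 0.35 from 60 h to 80 h and -0.32 from 80 h to 102 h. Those of all probe sets were -0.18, 0.25 and -0.31. Without the 3 arrays of low 5′ signal, 1 gene was lower at 30 h than at 8 h, 5 rose to 80 h, 8 rose and 8 fell to 102 h, and 11 were higher at 102 h than at 8 h. With a covariate for the 5′ to 3′ ratio, 1 rose and 1 fell to 30 h (3.5% and 3.71% of all). In that fit 7 rose and 8 fell to 60 h (20.7% and 17.7%). To 80 h, 5 rose and 5 fell (13.8% and 14.5%), with a median of 0.10 for the 43 genes. To 102 h, 7 rose and 7 fell (17.3% and 20.7%). With only the arrays of both times, 1 rose and 1 fell to 60 h (2.12% and 2.19% of all). These counts were 1 and 1 to 80 h (5.17% and 5.79%), and 8 and 8 to 102 h (22.5% and 26.0%). Causes were not tested.

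With arrays left out in turn, 19 to 27 genes changed over the 5 times, and the shares of all probe sets in these fits are not given. From 8 h to 30 h, 0 rose and 0 fell in each of these fits (median -0.16 to -0.01). In the next step, to 60 h, 1 to 6 rose and 1 to 7 fell (median -0.23 to -0.046); to 80 h, 0 to 6 rose and 1 to 4 fell (-0.09 to 0.03); to 102 h, 0 to 3 rose and 3 to 4 fell (-0.03 to 0.04). From 8 h to 102 h, 5 to 8 were higher and 10 to 17 lower (-0.23 to -0.14). With the replicate number as a block, 1 gene rose and 3 fell from 80 h to 102 h (8.13% and 9.10% of all probe sets). The calls of POL3 from 8 h to 102 h and of CDC45 and CDC9 from 30 h to 60 h ended in that fit. So did those of RNR3 and RFA1 from 80 h to 102 h. Sample labels do not state whether the replicate numbers pair the samples. Of 26 pairs of arrays with the same number, 4 had deviations correlated above 0.1 (range -0.14 to 0.74). The highest was of 8 h replicate 1 with 60 h replicate 1, both of low 5′ signal. Arrays of different numbers reached 0.62 (8 h replicate 2 with 60 h replicate 3), so these values cannot settle the pairing. A block by chip lot, fluidics or scanner was not run, because those fields were empty. SWI4, WHI5, CDC6, ORC4, CLB6 and HCM1 were near or under background on several arrays, which limits the precision of their folds.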
